A study of Homo sapiens with 10 samples.

Results

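The Pseudogene column of the count files was described in an enhanced crosslinking and immunoprecipitation (eCLIP) series on eIF4A, the helicase that unwinds the 5' leaders of mRNAs so that ribosomes can bind. The rows were chosen by their measured counts: a row was included where its Pseudogene counts summed to at least 10 over the 10 libraries. That kept 548 of the 39472 rows, out of 877 with any count in the column. Because the rule used these same counts, the levels that follow are descriptions of rows chosen for being counted. The 19 rows at exactly 10 counts were the last included, and the 19 rows at 9 counts were the first left out.

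FLAG-tagged eIF4A was present in HEK 293T cells, a long-established line from human embryonic kidney. The cells were treated for 1 h with 20 nM silvestrol, with 20 nM CR-1-31-B or with vehicle (DMSO), and crosslinked with 254 nm ultraviolet light at 400 mJ/cm2. RNA bound to the tagged protein was recovered with an anti-FLAG antibody, in 3 libraries per treatment numbered 1 to 3. The input was 1 library, number 2, made without antibody, and the labels give it no treatment of its own. The labels do not say whether the FLAG-eIF4A line is a clone, how much tagged protein it makes, or whether the numbers stand for separate cultures, so that every p-value measures only the spread between these libraries. Silvestrol and CR-1-31-B are rocaglates, small molecules that clamp eIF4A onto RNA, with a known preference for runs of purines.

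Pseudogenes are copies of genes that have lost the ability to make the original protein. Processed pseudogenes, or retrocopies, arise when an mRNA is reverse transcribed and inserted elsewhere, usually without introns or promoter. Unprocessed pseudogenes arise by duplication of a stretch of genome and often keep introns and neighbouring promoters. Unitary pseudogenes have no working copy left in the genome. Many of them are transcribed, and a sequenced read can be hard to assign between a pseudogene and its parent. An eCLIP count in such a row is therefore a count of reads that the authors' alignment placed there.

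RefSeq, in its table for GRCh38.p14, held 536 of the 548 members, of which 508 were transcribed pseudogenes, 4 other pseudogenes, 1 a noncoding-RNA pseudogene, 2 long noncoding RNAs and 21 protein-coding genes. The column thus mostly held what its name says; the exceptions were the protein-coding loci and the long noncoding RNAs, and 12 members had no match. GENCODE 29 transcripts were found for 471 members. By GENCODE type, 251 were unprocessed, 136 were processed and 35 were unitary pseudogenes. The matched transcripts had a median length of 2217 bases and a median GC content of 49.8%.

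How far a read could tell a member from its relatives was described by cutting each transcript into words of 30 bases. Only exact matches counted as shared. A median of 78.1% of a member's words occurred in no other gene's transcripts (quartiles 45.4% and 93.6%). In 156 members at least 90% of the words were unique, and in 34 members under 10% were. Those 34 members carried 9.88% of the members' counts. Sharing with the named parent was lower, with a median of 6.66% of words over 224 pairs, 31 pairs at 0 and a highest value of 85.5%. The remaining shared words belonged to other genes, such as sister copies.

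The difference between a pseudogene and its parent is shown for 4 pairs with many counts, as 30 bases of the sense strand of the GENCODE 29 transcripts in which they differ at 2 positions. Capitals mark the differing bases, positions are counted from 1 at the 5' end of the window, and the parent's base is written first.
BMS1P6: gctgcaaagaaaaagaagTggcAtctgcag
BMS1: gctgcaaagaaaaagaagCggcTtctgcag
SMG1P2: gcggcggcaccaaCtatTcgcggagctgga
SMG1: gcggcggcaccaaGtatCcgcggagctgga
SLC7A5P2: cggcgcgcgctagcggcCccggTggccgag
SLC7A5: cggcgcgcgctagcggcGccggCggccgag
RPLP0P2: gacctggaaACccaactacttccttaagat
RPLP0: gacctggaaGTccaactacttccttaagat
The changes were C19T and T23A in BMS1P6, on chromosome 10 like BMS1, and G14C and C18T in SMG1P2, on chromosome 16 like SMG1. They were G18C and C23T in SLC7A5P2, on chromosome 16 like SLC7A5, and G10A and T11C in RPLP0P2, on chromosome 11, whereas RPLP0 lies on chromosome 12. Over whole transcripts, 12% of the words of BMS1P6, 59.8% of SMG1P2, 51.7% of SLC7A5P2 and 3.38% of RPLP0P2 also occurred in the parent. No word of SLC7A5P2 and only 2.22% of those of SMG1P2 were unique to it, so the counts of both rows are uncertain.

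The anti-FLAG libraries were 858733 to 1804732 counts deep, beside 2193699 for the input. Of the cell line's usual markers, CDS counts in the input were 265 for VIM, 47 for NEFL, 48 for NEFM and 15 for INA. The blood genes PTPRC and HBB were at 0 and the liver genes ALB and APOA1 at 1 each, while of the 2 fibroblast genes COL1A1 had 130 counts and DCN had 0. The number 2 libraries listed fewer members above 0 than the others of their group, with 358 of 548 for silvestrol, 370 for CR-1-31-B and 374 for DMSO, against 444 to 485 in the other anti-FLAG libraries and 500 in the input. The highest class share of each group was in its number 3 library. The part that these library differences play in the results was not tested.

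The Pseudogene class took a small share of all counts, and the 4 groups differed by less than their libraries did. It held 0.427%, 0.549% and 0.585% of the counts in silvestrol libraries 1, 2 and 3, 0.446%, 0.467% and 0.65% in those of CR-1-31-B, and 0.528%, 0.505% and 0.61% in those of DMSO. The input share was 0.515% (exact 95% binomial interval 0.505% to 0.524%). The group means were 0.52 ± 0.083% for silvestrol, 0.521 ± 0.112% for CR-1-31-B and 0.548 ± 0.0554% for DMSO (SD, n = 3 each), and every group's range overlapped every other's. The denominator matters for the input: as a share of the counts outside the ncRNA class, the class took 0.651 ± 0.0729% in DMSO libraries (SD, n = 3) and 0.852% in the input. The intervals cover counting error only.

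**Figure D1:**
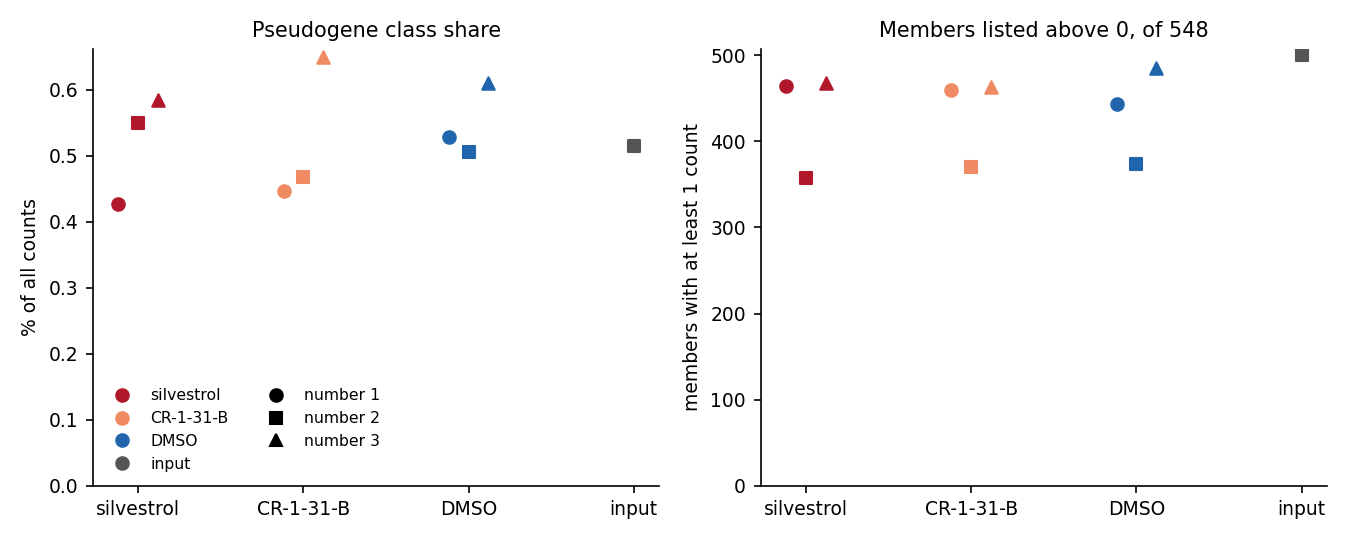
Share of each library's counts in the Pseudogene class (left, percent) and number of the 548 rows with at least 1 count (right), by treatment, with the marker shape giving the library number. The treatments overlap in share, and the number 2 library lists the fewest rows above 0 in each anti-FLAG group.

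Counts were concentrated in few rows. The 548 members held 64242 of the 65473 class counts (98.1%), the 12 highest held 21.3% of the members' counts and the 50 highest held 49.1%. The median member had 48.5 counts over all 10 libraries (quartiles 21 and 115), and 206 members had a count in every library.

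LOC100131257, a transcribed pseudogene in RefSeq, was the most counted member with 1694. It had 225, 162 and 100 counts with silvestrol, 154, 125 and 181 with CR-1-31-B, 155, 98 and 158 with DMSO and 336 in the input. As counts per 1000000 counts of the library (CPM) this gave 134 ± 23.9, 130 ± 58.3 and 134 ± 39.2 for the 3 treatments in the same order (SD, n = 3 each), beside 153 in the input. The group means differed by less than the spread of the libraries. The uncharacterised loci LOC440300 (1306 counts), LOC389834 (1184) and LOC107984677 (1099) are likewise known by number only, and 108 of the members have symbols of this kind.

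BMS1P6, which RefSeq lists as BMS1P2, is an unprocessed copy of BMS1, a GTPase of ribosome assembly. It had 212, 112 and 115 counts with silvestrol, 151, 108 and 134 with CR-1-31-B, 181, 123 and 135 with DMSO and 298 in the input. With 1569 counts it exceeded its parent, whose leader, CDS and 3'UTR together had 764. BMS1P5, listed by RefSeq as BMS1P1, had 868 counts. Together the 6 BMS1 copies had 3236 counts and stood at 234 ± 5.79 CPM with silvestrol, 224 ± 85.8 with CR-1-31-B and 294 ± 36.8 with DMSO (SD, n = 3 each), and at 304 in the input. The CR-1-31-B libraries spanned 165 to 322 CPM and so overlapped the DMSO range of 258 to 331, while the silvestrol range of 227 to 238 lay below it. Of the 5 copies that were tested, none was called.

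SMG1P2 derives from SMG1, a kinase of nonsense-mediated mRNA decay. It had 162, 123 and 73 counts with silvestrol, 117, 110 and 216 with CR-1-31-B, 132, 98 and 163 with DMSO and 205 in the input. Its CPM was 99.1 ± 20.4 with silvestrol, 132 ± 90.6 with CR-1-31-B and 129 ± 41.1 with DMSO (SD, n = 3 each), against 93.4 in the input. The wide spread under CR-1-31-B came from the number 3 library, at the top of that group. The 4 SMG1 copies held 1879 counts, beside 1705 for SMG1.

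SLC7A5P2 is a retrocopy of SLC7A5, the light chain of a large neutral amino acid transporter. It reached 104 ± 15.4 CPM with silvestrol, 76.8 ± 21.3 with CR-1-31-B and 100 ± 19.6 with DMSO (SD, n = 3 each), and 71.6 in the input, with 1116 counts in all beside 4395 for SLC7A5. GUSBP11, a relative of the lysosomal enzyme gene GUSB, had 802 counts, more than the 417 of GUSB, and 5 GUSB copies held 1154, although 1.51% of the words of GUSBP11 were unique. FER1L4, a unitary pseudogene of the ferlin family whose words were all unique, was lower in the 3 DMSO libraries (54.4 ± 24.2 CPM, SD, n = 3) than in the input (114 CPM, exact interval 100 to 129). Silvestrol libraries had 70.6 ± 51.6 CPM and CR-1-31-B libraries 42.4 ± 19.4 CPM of FER1L4 (SD, n = 3 each). ZNF37BP, a zinc finger pseudogene, stood at 47.8 ± 3.73 CPM with silvestrol, 63.3 ± 23.4 with CR-1-31-B, 63.7 ± 14 with DMSO (SD, n = 3 each) and 83.4 in the input.

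**Figure D2:**
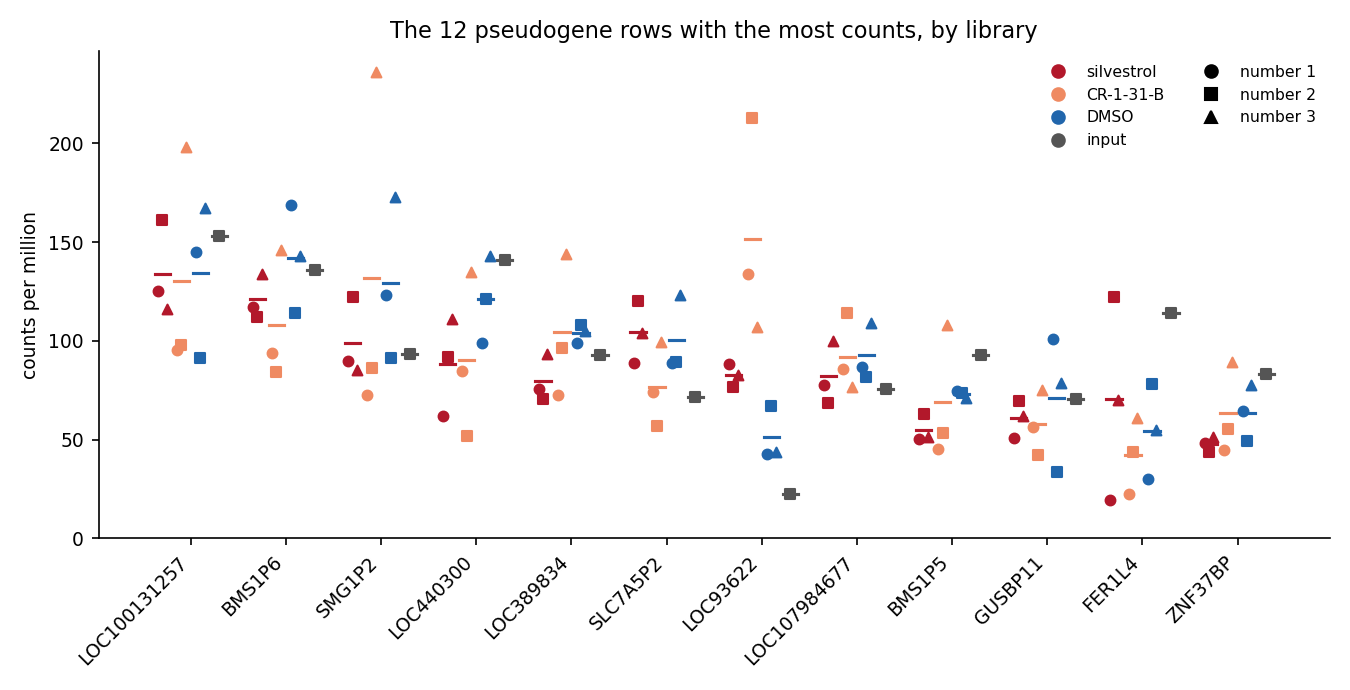
CPM of the 12 pseudogene rows with the most counts, in each library (markers, shape by library number) with the group mean (bars), silvestrol, CR-1-31-B, DMSO and input from left to right. In LOC93622 alone of these 12 do all 6 rocaglate libraries lie above the 3 DMSO libraries.

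Whether pseudogene RNA was recovered with FLAG-eIF4A above its input level was described by a fold rule, since the input has no replicate. A member counted as above the input where every DMSO library had at least 2 times the input CPM, with a floor of 3 counts. By this rule 23 members (4.2%) lay above the input, against 11.7% of all 49224 features (a symbol in 1 class) with at least 10 counts. In the other direction 10 members (1.82%) lay below it, against 1.36% of all features. Here a DMSO count under 3 was set to 3, so rows with few input counts could not be called below. Among 5' leaders, the mRNA part on which eIF4A acts, 33.4% lay above the input, among CDS 4.99%, among 3'UTRs 2.89%, among ncRNAs 4.79%, among the transcript class 4.96% and among LINC RNAs 7.17%. The median member had a ratio of DMSO to input of 1.00 on the scale of all counts, and this median was not computed on other scales. The split depends on the scale: relative to the counts outside the ncRNA class 10 members lay above and 25 below, and with TMM factors over the 10 libraries 14 and 18. On the first scale 7.13% of all features lay above the input and 4.09% below it, beside 4.56% of the members below, and with TMM factors 8.36% above and 2.84% below, beside 3.28% of the members below. The counts also rest on the number of DMSO libraries: with 1 left out, 48, 58 and 35 members lay above the input without DMSO library 1, 2 and 3 in turn, and 21, 15 and 24 below it. Over all features those settings gave 15.1% to 17.3% above and 2.48% to 2.92% below.

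The largest ratios among members with at least 50 counts came from rows with few input counts. RPL21P44, a processed copy of the ribosomal protein gene RPL21, had 11, 16 and 10 counts in the DMSO libraries and 3 in the input, a pooled ratio of 8.76 (exact 95% interval 2.77 to 44.4). Over all 10 libraries its 137 counts exceeded the 57 in the leader, CDS and 3'UTR rows of RPL21. LOC107986316 had 19, 24 and 24 counts in the DMSO libraries and 6 in the input, a pooled ratio of 7.93 (3.46 to 22.4). OR7E5P, of the olfactory receptor family, had 8, 13 and 12 in the DMSO libraries against 2 (11.7, interval 3 to 101), and MGC72080 had 22, 32 and 10 against 6 (7.57, interval 3.3 to 21.4). These rows were picked for their ratios, so the intervals describe the counting error only. None of them was called under the rocaglates. LOC107986316, for example, stood at 26.8 ± 12.4 CPM with silvestrol, 26.9 ± 11.1 with CR-1-31-B and 21.8 ± 3.88 with DMSO (SD, n = 3 each).

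Better counted rows above the input were LOC389906, LOC642943 and RPLP0P2, named after their values were seen, the last also by its place in the ribosomal protein list. LOC389906 had 64.1 ± 28.4 CPM in DMSO libraries (SD, n = 3) and 17.3 in the input, and LOC642943 had 64.7 ± 17.3 CPM in DMSO libraries (SD, n = 3) and 18.2 in the input. RPLP0P2, a copy of the ribosomal stalk protein gene RPLP0, had 35, 44 and 33 counts in the DMSO libraries and 31 in the input, a pooled ratio of 2.57 (1.71 to 3.95). Of its words 85.3% were unique and 3.38% were shared with RPLP0. The counts are per row, so whether its reads lay in the unique part is not known. RPLP0 itself had a ratio of 1.07 over its 3 parts, with the leader at 200 ± 72.2 CPM in DMSO libraries (SD, n = 3) and 102 in the input, and the CDS at 208 ± 26.8 and 280.

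At the other end, PPP4R1L, a relative of a phosphatase regulatory subunit gene, had 0, 0 and 3 counts in the DMSO libraries and 14 in the input (pooled ratio 0.152, interval 0.028 to 0.545). PIN4P1, a retrocopy of the prolyl isomerase gene PIN4, had 10, 2 and 13 counts in the DMSO libraries and 65 in the input (0.273, interval 0.165 to 0.439). In the rocaglate libraries PIN4P1 had 3, 16 and 2 counts with silvestrol and 24, 21 and 12 with CR-1-31-B, so the row stayed below its input level of 29.6 CPM in all 9 anti-FLAG libraries. PIN4 had a ratio of 0.839. PGM5P2, of the phosphoglucomutase family, had 13, 4 and 8 counts in the DMSO libraries and 58 in the input (0.306, interval 0.183 to 0.497), and its 163 counts in all exceeded the 63 of PGM5. FGD5P1, a copy of the guanine nucleotide exchange factor gene FGD5, had 3, 0 and 3 in the DMSO libraries and 14 in the input (0.304, interval 0.0959 to 0.843), with 52 counts in all beside 34 for FGD5.

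**Figure D3:**
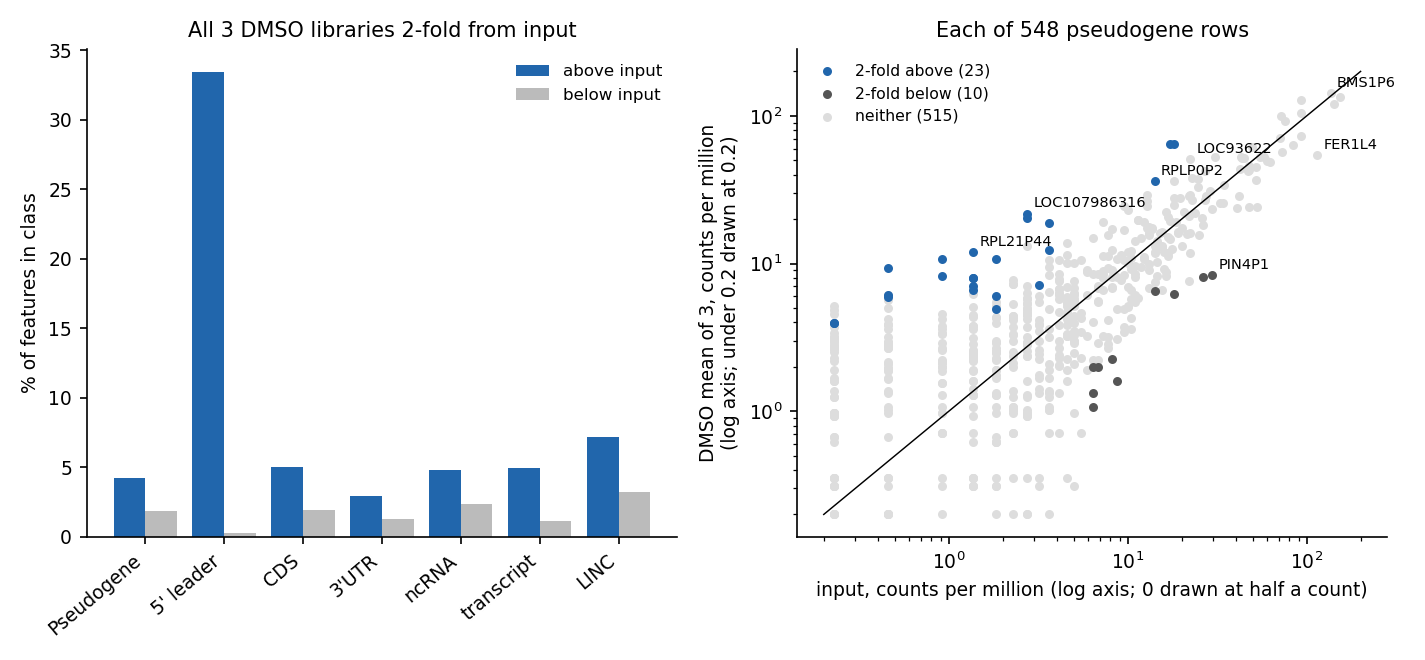
Left, percent of the features of each class of which all 3 DMSO libraries lie at least 2-fold above or below the input. Right, each of the 548 pseudogene rows by its input level and its mean DMSO level (CPM, log axes, line of equality). Pseudogene rows above the input are 4.2% and 5' leaders 33.4%, and most of the rows far above the line have few input counts.

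Under the rocaglates no pseudogene row passed the test in the fit without pairing. When libraries of the same number were taken as pairs, 1 row passed it, LOC93622, which RefSeq lists as protein coding. Of the 548 members, 181 passed the filter on low counts and entered a fit over all 24713 tested features (edgeR quasi-likelihood test, Benjamini-Hochberg adjusted p under 0.05). Silvestrol against DMSO called 0 members, where 0.255% of all features were called. CR-1-31-B against DMSO called 0 members, against 0.291% of all features, and both rocaglates against DMSO called 0, against 0.49%. CR-1-31-B against silvestrol called 0 members, where 0% of all features were called. With 181 members tested, a count of 0 lies near these shares. With the library number as a block, edgeR called 0 members for silvestrol, 1 (0.552%) for CR-1-31-B, 1 (0.552%) for both rocaglates and 0 between the rocaglates, where 1.28%, 1.48%, 2.04% and 0.00405% of all features were called. The block thus raised the number of features called for CR-1-31-B to 365, against 72 without it, and the members' share lay below that of all features in each comparison with DMSO. At an unadjusted p under 0.05, edgeR gave 4 members (2.21%) for silvestrol, 7 (3.87%) for CR-1-31-B and 5 (2.76%) for both, against 8.09%, 8.86% and 10% of all features in the same order. For CR-1-31-B against silvestrol it gave 7 members (3.87%), against 2.46% of all features. DESeq2 on the same libraries called 0 members for silvestrol, 1 for CR-1-31-B and 1 for both rocaglates, the same gene each time, LOC93622, where it called 1.25%, 1.36% and 2.15% of all features. It gave no adjusted p for 115, 109 and 109 of the 181 members in these contrasts. Without the filter on low counts all 548 members were tested, and edgeR called 0 for silvestrol, 1 for CR-1-31-B (LOC93622), 0 for both and 0 between the rocaglates, against 0.324%, 0.339%, 0.482% and 0.0105% of all features.

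The centre of the tested members' log2 fold changes turned on single libraries. The median was -0.12 for silvestrol, -0.11 for CR-1-31-B and -0.13 for both over DMSO, against -0.04, -0.03 and -0.05 over all tested features, and 37% of the members and 46.5% of all features lay above 0 for both rocaglates. As median log2 CPM differences from the DMSO mean, silvestrol libraries 1, 2 and 3 stood at -0.31, 0.04 and 0.07, those of CR-1-31-B at -0.22, -0.21 and 0.26, and those of DMSO at -0.08, -0.10 and 0.15. The median fold change was 0.05 for silvestrol without silvestrol library 1 and 0.04 for CR-1-31-B without CR-1-31-B library 2. For both rocaglates it was 0.003 without DMSO library 3 and 0.0029 without CR-1-31-B library 2. The tested members were also less counted than the average feature, with a median log2 CPM of 4.13 against 4.48. Only 3 members (1.66%) had all 6 rocaglate libraries above all 3 DMSO libraries, against 3.51% of all tested features, and 0 members had them all below, against 2.4%.

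The first of these was LOC93622, which RefSeq lists as the protein-coding gene MRFAP1L2 on chromosome 4, a relative of the MORF4-associated protein gene MRFAP1, and of whose words 92.4% were unique. It had 159, 77 and 71 counts with silvestrol, 216, 273 and 98 with CR-1-31-B, 46, 72 and 41 with DMSO and 49 in the input. Its level was 82.5 ± 5.71 CPM with silvestrol, 152 ± 55.3 with CR-1-31-B and 51.1 ± 13.7 with DMSO (SD, n = 3 each), and 22.3 in the input (exact interval 16.5 to 29.5). The CR-1-31-B libraries lay above the silvestrol libraries, these above the DMSO libraries, and these above the input, with no overlap between groups.

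On the log2 scale of the edgeR fit, LOC93622 differed from DMSO by 0.70 (SE 0.37, adjusted p = 0.674) with silvestrol, by 1.55 (SE 0.37, adjusted p = 0.0743) with CR-1-31-B and by 1.12 (SE 0.34, adjusted p = 0.154) over both. CR-1-31-B and silvestrol differed by 0.85 (SE 0.36, edgeR adjusted p = 1). The row passed the threshold in the fit with the library number as a block, at an adjusted p of 0.00903 for CR-1-31-B and 0.0252 for both. Over all 14 alternatives the log2 fold change for CR-1-31-B ranged from 1.24 to 1.87 and its adjusted p from 0.00438 to 0.514, with the highest p when the number 2 CR-1-31-B library was left out.

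The deposited Pseudogene column does not divide LOC93622 into leader, CDS and 3'UTR. Its relatives MRFAP1 and MRFAP1L1, looked up after these values were seen, are divided. MRFAP1L1 stood in the CDS at 14.7 ± 11.5 CPM with silvestrol, 42.7 ± 31.6 with CR-1-31-B and 4.87 ± 1.89 with DMSO (SD, n = 3 each), a log2 difference of 3.11 for CR-1-31-B (SE 0.70, edgeR adjusted p = 0.054). In its leader the level was 19.8 ± 9.1 CPM with silvestrol, 33.1 ± 3.16 with CR-1-31-B and 7.59 ± 4.48 with DMSO (SD, n = 3 each), a log2 difference of 2.09 for CR-1-31-B (SE 0.58, edgeR adjusted p = 0.142). In its 3'UTR the level was 10 ± 1.89 CPM with silvestrol, 13.9 ± 8.98 with CR-1-31-B and 15.3 ± 6.08 with DMSO (SD, n = 3 each), with log2 differences of -0.57 for silvestrol and -0.17 for CR-1-31-B. None of these passed the threshold in the fit without pairing, where the 3 parts of MRFAP1 differed from DMSO by -0.38 to 0.76 with either rocaglate. The rows of both relatives were not read from the fit with the library number as a block.

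LOC400927, which RefSeq lists as TPTEP2, a transcribed copy related to the phosphatase gene TPTE, had 18, 20 and 10 counts with silvestrol, 9, 19 and 7 with CR-1-31-B, 3, 2 and 1 with DMSO and 10 in the input. All 6 rocaglate libraries were above the DMSO libraries, and the input at 4.56 CPM lay between the groups. The row passed the filter on low counts only through its rocaglate libraries, so the filter favoured this separation. The log2 difference was 2.81 (SE 0.94) with silvestrol and 2.22 (SE 0.94) with CR-1-31-B, with edgeR adjusted p of 0.301 and 0.461.

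RPL23AP7, a processed copy of the ribosomal protein gene RPL23A, had 17, 6 and 4 counts with silvestrol, 17, 15 and 8 with CR-1-31-B, 0, 3 and 1 with DMSO and 2 in the input. Again the groups did not overlap, at a level near the floor of 3 counts in DMSO libraries. This row too passed the filter on low counts only through rocaglate libraries, so its separation was likewise favoured. It was no longer tested when CR-1-31-B library 1 or 2 was left out. The log2 difference was 2.31 (SE 1.15) with silvestrol and 2.88 (SE 1.14) with CR-1-31-B, with edgeR adjusted p of 0.635 and 0.401. The parent's CDS differed by 0.18 and -0.14 in the same contrasts, and 16.8% of the words of RPL23AP7 were unique.

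Since rocaglates are known to act at purines, the longest uninterrupted purine run (A or G only) of each of these 3 transcripts is shown in capitals, within 30 bases of the sense strand of GENCODE 29.
LOC93622: atcagatcAAAGGAGGGAGAGctgttttgg
RPL23AP7: tggacattGAAGGGAGAGAAGtggatttgg
LOC400927: gcgggcagtAGGGGGAGGAGcacagcagtg
The runs were 13, 13 and 11 bases long, in the order of the lines. Such runs were ordinary among the members, whose median longest run was 14 bases, and 298 of the 471 members with a transcript had one of at least 13. The counts are per row, so nothing shows where in the transcript the reads lay.

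**Figure D4:**
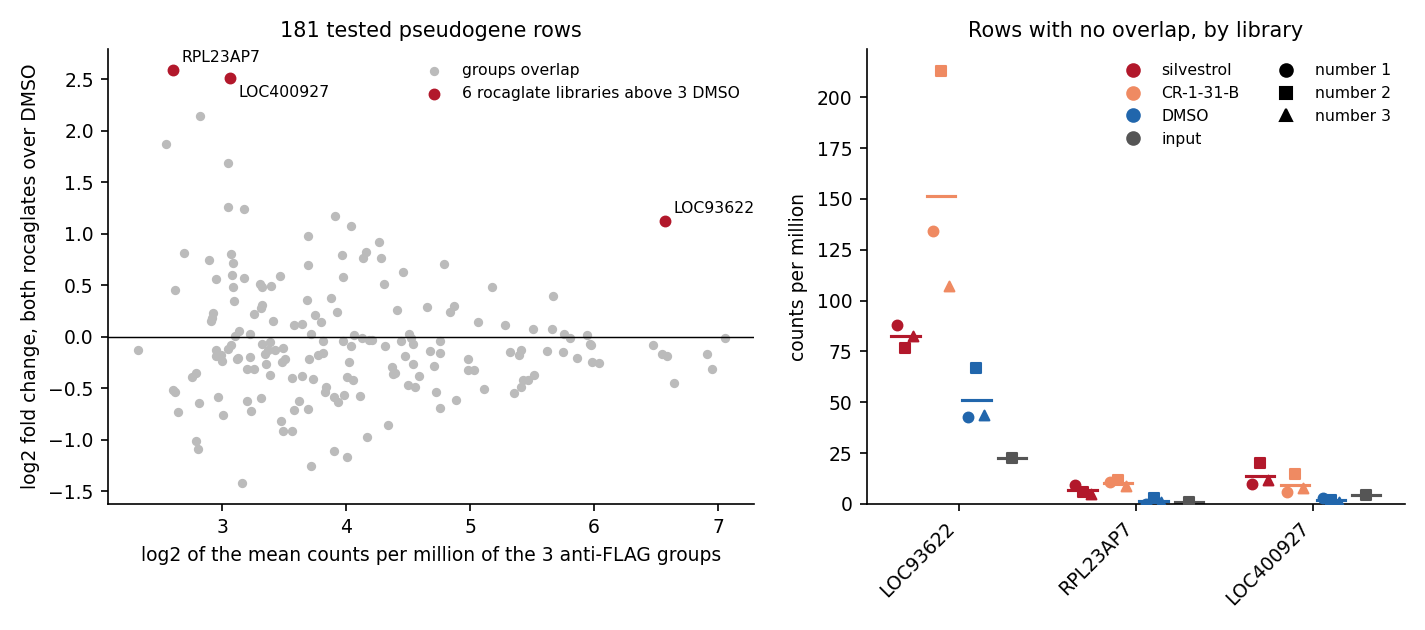
Left, log2 fold change of both rocaglates over DMSO against mean level for the 181 tested pseudogene rows, with the 3 rows whose rocaglate and DMSO libraries do not overlap in red. Right, those 3 rows by library in CPM. LOC93622 stands at a high level with a log2 fold change of 1.12, the other 2 at a low level.

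The other rows with an unadjusted edgeR p under 0.05 against DMSO, named after their values were seen, missed the adjusted threshold. FAM86B3P had 33, 37 and 14 counts with silvestrol, 9, 2 and 16 with CR-1-31-B, 2, 12 and 7 with DMSO and 29 in the input, so that all 3 silvestrol libraries exceeded DMSO and those of CR-1-31-B did not separate from it. SPRNP1, a copy of the shadow of prion protein gene SPRN, had 22, 34 and 11 counts with silvestrol, 7, 3 and 7 with CR-1-31-B, 6, 33 and 24 with DMSO and 37 in the input. Its CR-1-31-B libraries were low, with a log2 difference from DMSO of -2.17 (edgeR adjusted p = 0.283) and from silvestrol of -2.11 (edgeR adjusted p = 1), and the DMSO number 1 library lay within their range. TUBBP5, a copy of a beta-tubulin gene, had 29, 35 and 9 counts with silvestrol, 29, 21 and 14 with CR-1-31-B, 5, 12 and 8 with DMSO and 18 in the input. FAM86B3P passed the filter on low counts only through its silvestrol libraries, and TUBBP5 only through rocaglate libraries. SPRNP1 passed it only through silvestrol and DMSO libraries. The filter thus favoured these differences. Log2 differences of WHAMMP2 (-2.02 with silvestrol), LRRC37A4P (-1.69), MTMR9LP (2.50) and LOC729603 (-1.56, all with CR-1-31-B) had adjusted p from 0.399 to 0.585 in edgeR.

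A parent could be read from the symbol for 239 members, with 187 distinct parents. The parents mostly had more counts: 39 members exceeded the summed leader, CDS and 3'UTR counts of their parent. Per kilobase of transcript, 55 of 223 pairs had more counts in the pseudogene, and the median ratio of pseudogene to parent was 0.197 (quartiles 0.0611 and 0.954). BMS1P6 had 844 counts per kilobase against 98.5 for BMS1, SMG1P2 331 against 106 for SMG1, and SLC7A5P2 2082 against 969 for SLC7A5. At the other extreme RPLP0P2 had 85.7 against 3483 for RPLP0, and FTH1P3 had 56.5 against 7334 for FTH1, the ferritin heavy chain gene. These lengths are those of the GENCODE transcript and need not match the model the authors counted on.

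**Figure D5:**
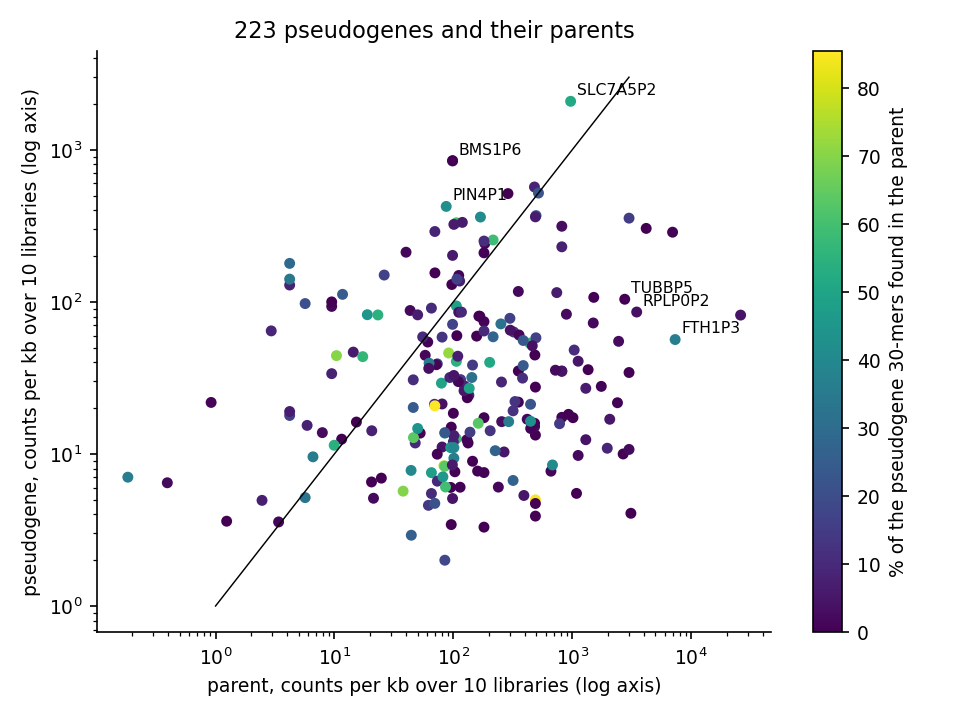
Counts per kilobase of GENCODE transcript, summed over the 10 libraries, of 223 pseudogene rows against those of the parent named by the symbol (log axes, line of equality), coloured by the percent of 30-base words found in the parent. Most points lie below the line, with BMS1P6, SLC7A5P2 and PIN4P1 above it.

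Summed over all pairs, the pseudogenes had 11.2 ± 2.99% of the parents' counts with silvestrol, 11.3 ± 4.1% with CR-1-31-B and 12.1 ± 1.94% with DMSO (SD, n = 3 each), and 14.9% in the input. Against the parents' CDS alone the shares were 28.9 ± 7.15%, 26.8 ± 8.86%, 25.1 ± 4.16% and 23.3% in the same order. Against the parents' 5' leaders they were 25.6 ± 7.73% with silvestrol, 28.3 ± 14.4% with CR-1-31-B and 39 ± 8.6% with DMSO (SD, n = 3 each), and 115% in the input. In the DMSO libraries the ratio to the CDS thus differed from that of the input by less than 1 SD, while the ratio to the leaders was 39% with DMSO against 115% in the input.

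Log2 differences of single pairs under the rocaglates were set beside each other from the same fit. A parent with several tested copies entered once for each copy, as did BMS1 with 5 and SMG1 with 3. Among the 42 pairs with a tested leader, the median log2 difference for silvestrol was -0.17 in the pseudogenes and 0.51 in the parent leaders. For CR-1-31-B it was -0.19 and 0.28, and for both rocaglates -0.20 and 0.16. Among the 54 pairs with a tested CDS it was -0.18 and -0.12 for silvestrol, and -0.25 and -0.22 for CR-1-31-B. Of the 54 pairs, 33 had the same sign in pseudogene and CDS for silvestrol, 33 for CR-1-31-B and 28 for both rocaglates. Of the 42 leader pairs, 21, 19 and 24 had the same sign in the same order. Of the 42 pairs with a tested 3'UTR, 27, 16 and 21 did. Pearson correlations across the pairs of each set ran from -0.22 to 0.195. These contrasts share their DMSO libraries. In the fit without pairing, called leaders stood beside pseudogenes that were not called, among them those of TPM3, BCR and FTH1. Over both rocaglates the TPM3 leader rose by 2.46 on the log2 scale (edgeR adjusted p = 0.00594), beside 242 counts in TPM3P9. The BCR leader rose by 1.53 (edgeR adjusted p = 0.0498), beside 192 counts in BCRP2. The FTH1 leader was at 910 ± 38.7 CPM with silvestrol, 926 ± 206 with CR-1-31-B and 360 ± 69.7 with DMSO (SD, n = 3 each). It rose by 1.35 on the log2 scale over both rocaglates (edgeR adjusted p = 0.0436). FTH1P3 had 5, 0 and 2 counts with silvestrol, 6, 1 and 11 with CR-1-31-B, 1, 0 and 0 with DMSO and 7 in the input, too few to be tested.

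Ribosomal protein pseudogenes were the largest of the parent families, with 20 members. They stood at 118 ± 16.1 CPM with silvestrol, 125 ± 24.9 with CR-1-31-B and 154 ± 24.8 with DMSO (SD, n = 3 each), and 134 in the input, with overlapping ranges of 99.7 to 130, 109 to 154, 126 to 173 in the same order. Taken by number, however, libraries 1, 2 and 3 stood at 99.7, 130 and 123 CPM with silvestrol, 109, 113 and 154 with CR-1-31-B, and 126, 173 and 163 with DMSO. The rocaglate library was thus below the DMSO library of its number in 6 of 6 pairs, which share 3 DMSO libraries, beside 4 of 6 pairs for the sum of all members. Over the other families and the copies of single parents, this number ran from 0 of 6 for glycolysis to 6 of 6 for WHAMM. By the fold rule 3 of the 20 (15%) lay above the input and 1 (5%) below. Among all members the shares were 4.2% and 1.82%, and among all features 11.7% and 1.36%. Of the 6 that were tested, 0 were called and 2 had a positive log2 difference for both rocaglates (median -0.31). Of their parents' CDS 12 were tested and 0 called in the fit without pairing. The CDS median was -0.44 for both rocaglates, so that both medians lay below 0. RPL32P3 had 16.1 ± 8.28 CPM with silvestrol, 22.5 ± 1.46 with CR-1-31-B and 23.7 ± 14.5 with DMSO (SD, n = 3 each), and 40.6 in the input, where RPLP0P2 had 22.8 ± 14.8, 22.2 ± 7.41, 36.2 ± 4.27 and 14.1. The DMSO libraries of these 2 rows thus lay on opposite sides of the input.

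The other families were small. The 10 cytoskeletal members stood at 53.2 ± 18.7 CPM with silvestrol, 47.9 ± 16.2 with CR-1-31-B and 54.4 ± 7.07 with DMSO (SD, n = 3 each), and 50.1 in the input. The 7 chaperone copies, led by FKBP1AP1 and FKBP9P1, were at 35.4 ± 12.1 with silvestrol, 45.1 ± 12.2 with CR-1-31-B, 31.2 ± 14.2 with DMSO and 41.5 in the input. The 3 ubiquitin-pathway members, among them UBE2Q2P1 with 320 and UBE2CP5 with 193 counts, were at 40.7 ± 6.23, 49 ± 25, 52.5 ± 7.29 and 43.8 CPM in the same order. In these 3 families 7 members were tested and 0 called, and the groups overlapped.

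The remaining lists had 1 or 2 members each: EEF1DP3 (43 counts) for translation factors, PABPC1P2 (131) for RNA-binding proteins, TPI1P2 (25) and TPI1P3 (20) for glycolysis, HMGN2P46 (21) and HMGB3P1 (17) for chromatin proteins, NDUFAF4P1 (17) for oxidative phosphorylation, RN7SL832P (149) for small RNA genes, and FTH1P3 (33) and FTLP10 (15) for iron storage. Mitochondrially encoded stems had 0 members. Of these rows PABPC1P2 and RN7SL832P were tested and neither was called. The parent PABPC1, the cytoplasmic poly(A)-binding protein gene, had 4160 counts in its leader, against 131 in the whole row of PABPC1P2.

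Split by origin, each kind of pseudogene overlapped between treatments. The 251 unprocessed members took 2105 ± 315 CPM with silvestrol, 2099 ± 407 with CR-1-31-B and 2170 ± 240 with DMSO (SD, n = 3 each), and 2019 in the input. The 136 processed members took 913 ± 146 with silvestrol, 908 ± 230 with CR-1-31-B, 1009 ± 92.6 with DMSO and 933 in the input, and the 35 unitary members 324 ± 106, 306 ± 84.4, 361 ± 55.6 and 399. By the fold rule 13 unprocessed (5.18%), 4 processed (2.94%) and 1 unitary member (2.86%) lay above the input, beside 4.2% of all members.

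The 21 members that RefSeq lists as protein coding, a split made after values were seen, were at 272 ± 59.5 CPM with silvestrol, 335 ± 50.7 with CR-1-31-B and 226 ± 23.5 with DMSO (SD, n = 3 each), and 205 in the input. Their CR-1-31-B libraries, from 289 to 389 CPM, all lay above the DMSO libraries, from 199 to 242. That separation rested on LOC93622, at 152 CPM with CR-1-31-B and 51.1 with DMSO. Without it the other 20 rows stood at 189 ± 64.8 CPM with silvestrol, 184 ± 33.7 with CR-1-31-B and 175 ± 18.5 with DMSO (SD, n = 3 each), and their CR-1-31-B libraries, from 155 to 221, overlapped those of DMSO, from 156 to 193. Of the 8 tested rows of the 21, 6 had a positive log2 difference for both rocaglates, with a median of 0.47, and 0 were called; without LOC93622 the median was 0.22. Zinc finger symbols counted 16 members, at 259 ± 44.2 CPM with silvestrol, 316 ± 86.1 with CR-1-31-B and 301 ± 57.1 with DMSO (SD, n = 3 each), and 330 in the input.

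Rows that can be told apart well and rows that cannot both differed between groups by less than the spread of the libraries. The 156 members with at least 90% unique words took 1462 ± 260 CPM with silvestrol, 1474 ± 282 with CR-1-31-B and 1489 ± 108 with DMSO (SD, n = 3 each), and 1452 in the input. The 34 members under 10% took 502 ± 71.4 with silvestrol, 480 ± 172 with CR-1-31-B, 556 ± 114 with DMSO and 515 in the input. Median log2 differences for both rocaglates were -0.09 over the 55 tested members of the first kind and -0.17 over the 11 of the second.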

How the data were processed

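The authors deposited a table of raw counts per library, with 39472 symbols in 7 classes, per the file headers. The submitters' processing notes name cutadapt and Bowtie 1.1. Build, annotation, treatment of multiply aligned or duplicate reads, strand and counting rule are not given in the sources used here, so rows with near-identical copies are uncertain. The members and the lists were chosen with earlier results of these data known.

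The 9 anti-FLAG libraries were fitted over all symbols and classes with edgeR 4.0.16 (R 4.3.3; filterByExpr, TMM, quasi-likelihood test, Benjamini-Hochberg over 24713 features). DESeq2 1.42.0 was an alternative. CPM are per 1000000 counts of a library. Ratios to the input, which has 1 library, carry no test, and exact intervals (95%) and the floor of 3 counts cover counting error only. Scripts were tested on simulated data. RefSeq names were matched for 536 members (454 by symbol, 50 by gene ID, 32 by an older name) and GENCODE 29 transcripts for 471, and no coordinates are given because the files' build is unknown here. Libraries with the same number deviated together (correlations 0.102 to 0.263 over 9 pairs, other pairs -0.203 to 0.0163), so the numbers were taken as pairs, from the data and not from the labels. Deviations were taken from each group's own mean, so positive same-number values push the other pairs down. The other pairs are thus no separate evidence. Replicates differed by more than sampling noise (chi-square over its degrees of freedom, 4.66 to 10.4).

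Members named are the 12 with the most counts, those called, the extremes among rows whose rocaglate and DMSO libraries do not overlap, the 4 highest and 4 lowest ratios to the input among members with at least 50 counts, and the 2 most counted of each family list, besides those said to have been named later.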

Additional observations from a re-analysis of the deposited data

How the results depend on the processing

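With the replicate number as a block, taken as pairs, 1 row of the column was called for CR-1-31-B and 1 for both rocaglates. It was LOC93622 each time, which RefSeq lists as protein coding, beside 1.48% and 2.04% of all features. The same counts of 1 and 1 came from DESeq2 (1.36% and 2.15% of all features), and 1 row was called for CR-1-31-B without a filter on low counts (0.339% of all features). Leaving out a library in turn gave 0 to 1 called rows for CR-1-31-B, the 1 being without CR-1-31-B replicate 3 (adjusted p = 0.0281 in edgeR), and 0 for silvestrol, for both rocaglates and between the rocaglates. Of all features these fits called 0% (without DMSO replicate 3) to 0.829% (without CR-1-31-B replicate 3) for CR-1-31-B. For silvestrol they called 0.0145% to 0.366%, for both rocaglates 0.0254% to 1.05%, and between the rocaglates 0%. Leaving out the number 2 libraries of all groups, an alternative chosen after seeing the data, called 0 rows. Of all features it called 0.382% for silvestrol, 0.0369% for CR-1-31-B, 0.238% for both and 0% between the rocaglates. The block changed no other call of a pseudogene row.

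Relative to the counts outside the ncRNA class, the class share was 0.625% with silvestrol, 0.651% with DMSO and 0.852% in the input; without the 5 highest rows it was 0.485% with DMSO and 0.453% in the input. Members above and below the input numbered 10 and 25 on the first scale and 14 and 18 with TMM factors, with 4.09% and 2.84% of all features below, and 35 to 58 above and 15 to 24 below when 1 DMSO library was left out, since fewer libraries then had to pass. Pseudogene counts as a share of parent counts were 9.64% with DMSO and 11.9% in the input without the 5 highest members. Log2 differences changed sign for FAM86B3P with CR-1-31-B (0.16 with all libraries), ranging from -0.89 to 0.79 as 1 library at a time was left out, and for SPRNP1 with silvestrol (-0.06 with all libraries), at 0.06 with the block and from -0.72 to 0.42 as 1 library at a time was left out. The cause was not tested. Of the alternative values for named rows, 371 kept their direction and side of the threshold, 6 newly passed it and 7 changed sign; 27 from DESeq2 had no adjusted p and are not among these. Medians of the tested members moved in every alternative by less than 1 SD of the rocaglate libraries compared (0.21 for silvestrol, 0.27 for CR-1-31-B). Some moves exceeded the DMSO SD of 0.14, such as that for CR-1-31-B to -0.32 without CR-1-31-B replicate 3. Without single libraries the sign of the medians changed against DMSO as given above, and between the rocaglates they ranged from -0.13 to 0.13. Rows near the floor of 3 counts, from 1.66 to 3.49 CPM in the anti-FLAG libraries, are limited by depth.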
